A study of Mus musculus with 7 samples.

Results

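Serotonin acts on cells through a family of receptors that is usually sorted by how each receptor signals. The family 1 and family 5 receptors couple to the inhibitory Gi/o proteins, which lower cyclic AMP and open potassium channels. Family 2 receptors couple to Gq and release calcium from internal stores, the family 4, 6 and 7 receptors couple to Gs and raise cyclic AMP, and the family 3 receptor is a cation channel that serotonin opens directly. In the prefrontal cortex, which receives serotonin fibres from the raphe nuclei of the brainstem, Htr1a and Htr2a are known for their opposite effects on pyramidal neurons, and Htr3a marks a broad class of interneurons.

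The transcripts of 10 serotonin receptor genes were followed in medial prefrontal cortex (mPFC) of mice. The genes were Htr1a, Htr1b, Htr1f, Htr2a, Htr2c, Htr3a, Htr4, Htr5a, Htr6 and Htr7. They were chosen by name, and all 10 were found among the 25467 genes of the count table. All 10 also passed the filter on low counts that left 17211 genes to be tested. RNA sequencing gave 7 libraries, each taken here as a separate mouse. Of these, 4 carry the treatment label rhTSP1 (recombinant human thrombospondin-1, called TSP1 here) and 3 the label PBS (phosphate-buffered saline). Astrocytes secrete this matrix protein, which is known to promote the formation of excitatory synapses. The sources used here do not give strain, sex, age, dose, route or time of dissection. The libraries held 15090336 to 20755167 counts each. As the tissue is a mixture of cells, fewer cells of a type and less RNA per cell cannot be told apart in any value below.

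The markers went with a cortical origin: Slc17a7, the vesicular glutamate transporter of cortical excitatory neurons, had 1302 to 1608 CPM (counts scaled for library size with TMM factors) in every library. Defining transcripts of serotonin neuron cell bodies were near 0: Slc6a4, the serotonin transporter, had at most 0.161 CPM, and Tph2, the brain enzyme of serotonin synthesis, had at most 0.672 CPM. Slc18a2, the vesicular monoamine transporter and the only gene of that list with enough counts to be tested, had 4.03 to 5.38 CPM. TSP1 replicate 4 stood apart from the other 6 libraries. All 11 striatal projection neuron markers that were tested, and all 7 oligodendrocyte markers, were highest there. In the same library 5 of 8 markers of cortical layers 5 and 6 (Bcl11b, Crym, Foxp2, Tle4 and Syt6) were highest. Fezf2 and Etv1 were highest in TSP1 replicate 1 and Pou3f1 in TSP1 replicate 2. The part of striatal transcripts in these layer markers was not tested. In TSP1 replicate 4, 5 of 7 markers of layers 2 to 4 were lowest.

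**Figure D1:**
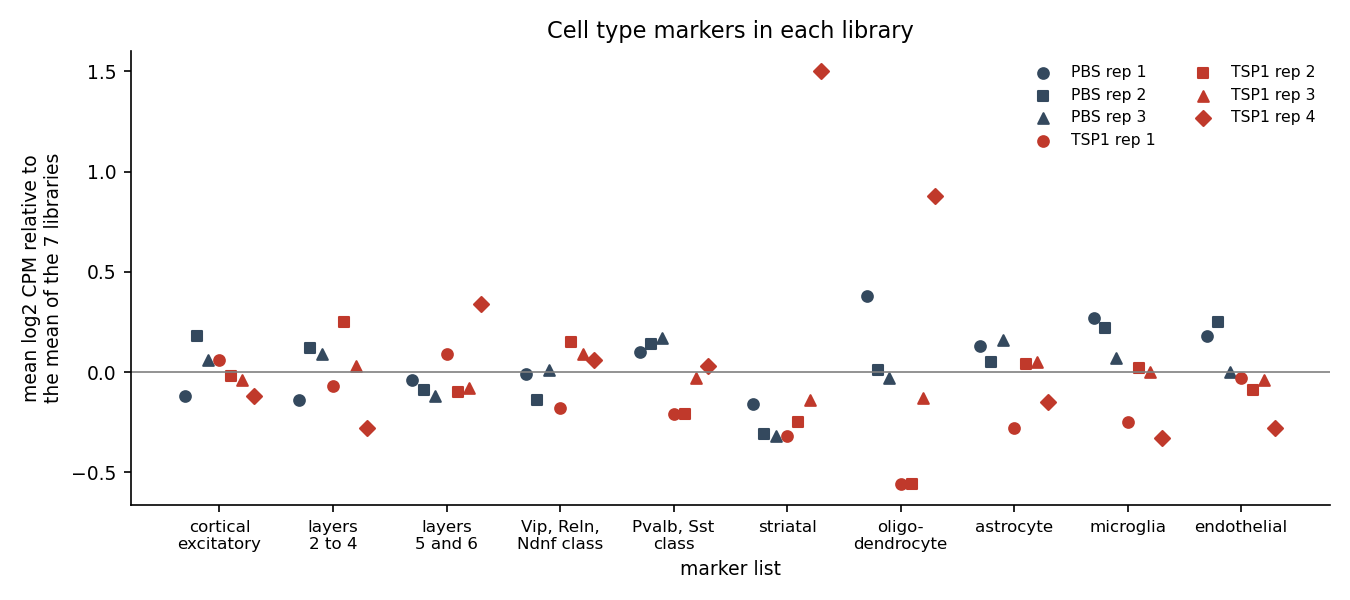
Mean log2 CPM of the tested genes of each cell type marker list (vertical axis, relative to the mean of the 7 libraries) for the lists on the horizontal axis; each point is 1 library, coloured by group and shaped by replicate number. TSP1 replicate 4 lies above every other library in the striatal list and in the oligodendrocyte list, where it is at 0.88 and the next library, PBS replicate 1, at 0.38.

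The G protein-coupled members share a stretch of coding sequence, printed to show where their transcripts are alike and where they differ. It surrounds the DRY motif, the aspartate, arginine and tyrosine at the inner end of the third membrane-spanning helix through which such receptors switch on their G protein. Each stretch below is 45 bases of coding sequence, read 5′ to 3′ on the strand of the gene, with the 3 codons of the motif in capitals (GENCODE M21 transcripts, GRCm38). Htr4 is left out of the sequences.
Htr1a (chr13:105444635-105444679, plus strand): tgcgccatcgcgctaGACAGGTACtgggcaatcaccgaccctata
Htr1b (chr9:81632100-81632144, minus strand): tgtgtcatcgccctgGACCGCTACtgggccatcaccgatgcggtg
Htr1f (chr16:64926541-64926585, minus strand): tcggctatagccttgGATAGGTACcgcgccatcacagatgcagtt
Htr5a (chr5:27842845-27842889, plus strand): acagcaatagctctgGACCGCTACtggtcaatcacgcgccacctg
Htr2a (chr14:74645074-74645118, plus strand): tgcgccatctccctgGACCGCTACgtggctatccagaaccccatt
Htr2c (chrX:147169656-147169700, plus strand): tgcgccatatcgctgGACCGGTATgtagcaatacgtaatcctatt
Htr6 (chr4:139074366-139074410, minus strand): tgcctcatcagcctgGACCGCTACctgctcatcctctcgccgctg
Htr7 (chr19:35970040-36056725, minus strand, across an exon junction): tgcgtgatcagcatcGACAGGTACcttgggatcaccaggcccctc

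Over these 45 bases the most alike of the 28 pairs were Htr2a and Htr2c, with 34 bases the same (75.6%), followed by Htr1a and Htr1b with 33 (73.3%). The least alike were Htr1f and Htr6, with 19 (42.2%). Likeness over so short a stretch did not always follow the families, as Htr1a shared 28 bases (62.2%) with Htr1f but 31 (68.9%) with Htr2a. In Htr2c the stretch ends in the codons that RNA editing is known to change, shown in capitals in the next line because a count per gene cannot separate edited from unedited transcripts. They are codons 157, 159 and 161 of the coding sequence.
Htr2c edited codons: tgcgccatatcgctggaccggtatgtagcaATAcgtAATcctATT

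The channel gene Htr3a has 0 in-frame DRY codons. Its own hallmark is the Cys-loop, a pair of cysteines joined outside the cell, whose 45 coding bases at chr9:48904608-48904652 (minus strand) are given with the 2 cysteine codons in capitals.
Htr3a: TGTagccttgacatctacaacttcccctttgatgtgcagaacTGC

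Htr5a was the most abundant of the receptor transcripts per length of exon and Htr4 the least. Levels are compared between genes as CPM per kilobase of annotated exon, and the SD is over the 7 libraries. Htr5a had 3.82 ± 0.231 (SD, n = 7), Htr1a 3.22 ± 0.354, Htr6 3.22 ± 0.622, Htr2a 2.76 ± 0.258 and Htr3a 2.7 ± 0.451 CPM per kilobase. Below them came Htr2c with 2.14 ± 0.666, Htr1b with 1.86 ± 0.296, Htr7 with 1.77 ± 0.244, Htr1f with 1.21 ± 0.313 and Htr4 with 0.379 ± 0.118. The mean of the first was 10.1 times that of the last.

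Neighbours in this order mostly did not differ beyond their spread. Each gene's range over the 7 libraries overlapped that of the next one down, except that the range of Htr1f (0.908 to 1.73) lay wholly above that of Htr4 (0.205 to 0.511). Compared within each library, Htr5a was above Htr1a, and Htr1f above Htr4, in all 7, and the other neighbours kept their order in 4 to 6 of 7. Of the 45 pairs of members, 26 had ranges that did not touch. Htr5a lay above every member except Htr1a and Htr6 in this sense, and Htr1a, Htr6 and Htr2a lay above Htr1b, Htr7, Htr1f and Htr4. Htr1a and Htr6 had nearly the same mean, and they swapped places when any 1 of the TSP1 libraries or PBS replicate 3 was left out. Htr6 had the top place in 1 library, PBS replicate 2, at 4.45 against 3.93 for Htr5a.

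The place of Htr2c rests on the length it is given. Its annotated exons, taken over 7 transcripts, span 9328 bases, whereas its longest transcript has 4883 bases. With the longest transcript as the length, Htr2c was first of the 10, at 4.08 CPM per kilobase, and with coding length alone it was second. In plain CPM, Htr5a and Htr2c took the most reads, with 21.2 ± 0.74 and 21.6 ± 6.26 CPM in the TSP1 group (SD, n = 4). In the PBS group they had 19.7 ± 1.37 and 17.7 ± 6.65 CPM (SD, n = 3).

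**Figure D2:**
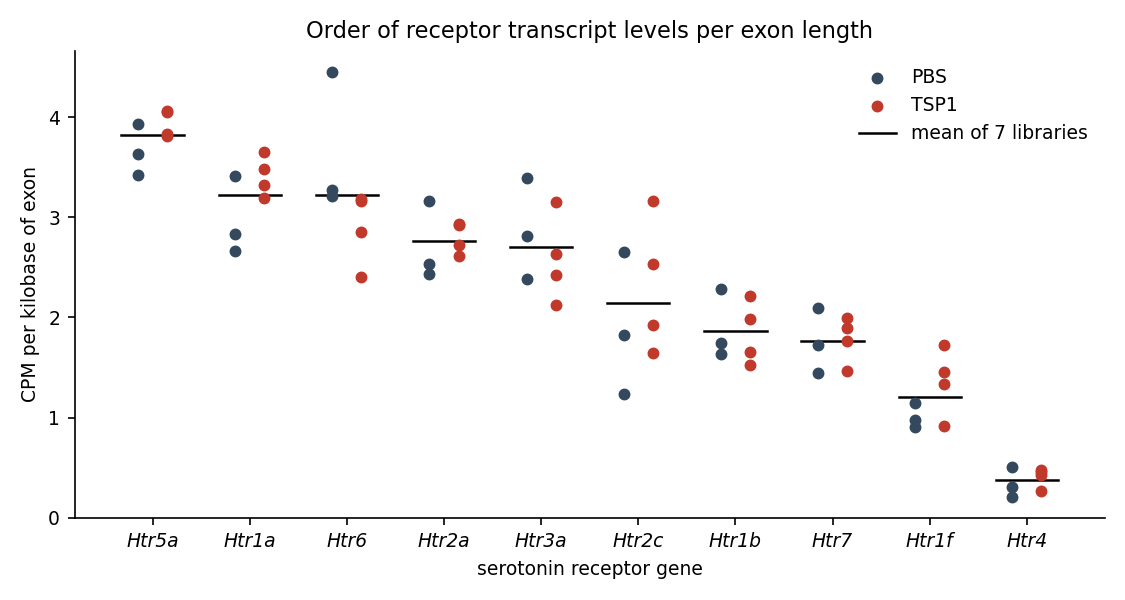
Level of each receptor transcript per exon length (vertical axis, CPM per kilobase of exon) with genes on the horizontal axis in order of their mean; points are single libraries coloured by group and the black line is the mean of the 7. The means fall from 3.82 for Htr5a to 0.379 for Htr4, and the ranges of neighbours overlap except for Htr1f and Htr4.

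The receptor transcripts were scarce beside most genes. The median of the 14412 tested protein-coding genes was 5.27 CPM per kilobase, and Htr5a stood at the percentile 41.2 and Htr4 at 6.77. Among 34 receptor genes for serotonin, dopamine, noradrenaline, acetylcholine and histamine, the first 10 places per kilobase of annotated exon all went to receptors of other transmitters. They were led by the histamine receptor Hrh3 (28.5 CPM per kilobase) and the muscarinic receptor Chrm1 (27.5), while Htr5a came at place 11. These places and percentiles depend on the exon length given to each gene, as does the place of Htr2c above. In plain CPM Adra2a, at place 10, had 21.9 with TSP1 and 22 with PBS, near the values of Htr5a (21.2 and 19.7). The serotonin receptor genes Htr5b, Htr2b and Htr1d, which are not among the 10, had 0.532, 0.248 and 0.2 CPM per kilobase. Htr3b was not found among the genes of the count table. As the smallest row total there was 5 counts, a gene with fewer could have been left out before deposit.

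No serotonin receptor transcript passed the test of TSP1 against PBS. In edgeR's quasi-likelihood test 0 of 10 had a Benjamini-Hochberg adjusted p under 0.05, and of all 17211 genes the share called was likewise 0%. The unadjusted p was under 0.05 in 0 of 10, against 9.65% of all genes tested (4.21% higher and 5.44% lower with TSP1). DESeq2, edgeR's exact test and limma-voom also gave 0 of 10, with 0 of 10 at an unadjusted p under 0.05 in each. Fitted log2 fold changes ranged from -0.33 for Htr6 to 0.43 for Htr1f, with 7 above 0 and 3 below, where 51.1% of all genes were above 0. Their median was 0.08, against 0.00 over all genes tested. The groups did not overlap at 1 of the 10 genes, Htr6, against 10.1% of all genes, 5.26% of them lower with TSP1.

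**Figure D3:**
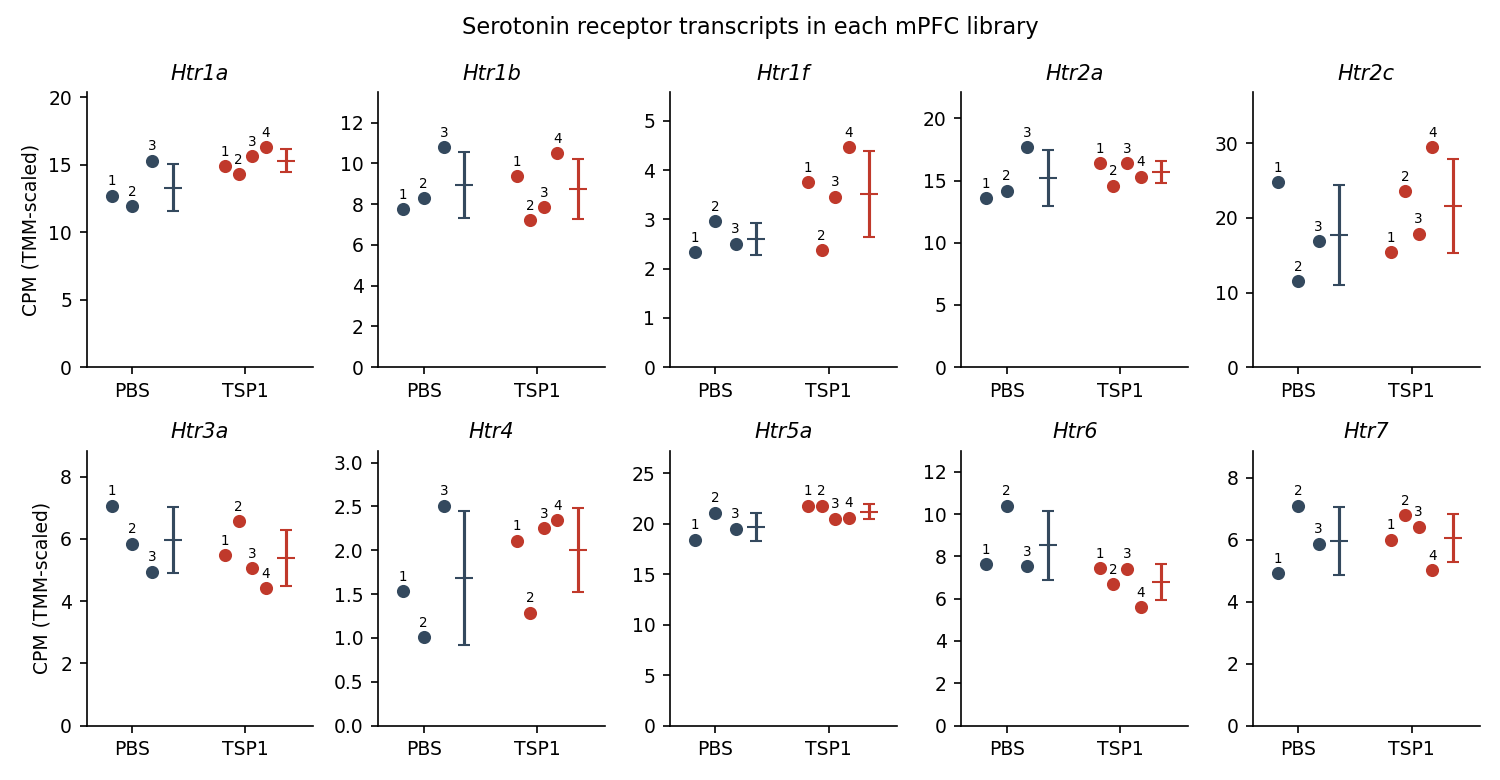
TMM-scaled CPM of each receptor gene (vertical axes, each starting at 0) in the PBS and TSP1 libraries; points are single libraries with their replicate numbers, and the bar beside them is the group mean with its SD. The groups overlap in 9 panels, and only the Htr6 points are apart, with TSP1 at 5.61 to 7.45 and PBS at 7.52 to 10.4.

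Among the Gi/o-coupled members, Htr1a is the autoreceptor of serotonin neurons and, in cortex, an inhibitory receptor of pyramidal cells and interneurons. It lies on chromosome 13 from 105443639 to 105448122 (GRCm38), a gene of 1 exon. Its CPM was 14.9, 14.3, 15.6 and 16.3 in TSP1 replicates 1 to 4 and 12.7, 11.9 and 15.3 in PBS replicates 1 to 3. PBS replicate 3 lay inside the TSP1 range and the other PBS libraries lay below it. The log2 fold change was 0.20 (SE 0.11, 95% interval -0.03 to 0.43, edgeR adjusted p = 0.586), and leaving out 1 library moved it from 0.14 (without PBS replicate 2, unadjusted p = 0.264) to 0.31 (without PBS replicate 3, unadjusted p = 0.0158, edgeR adjusted p = 0.654).

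Htr1b, an inhibitory receptor on axon terminals (chromosome 9, 81628291 to 81633828), had 9.37, 7.21, 7.85 and 10.5 CPM with TSP1 and 7.74, 8.28 and 10.8 with PBS. The groups covered nearly the same range, and the log2 fold change was -0.03 (95% interval -0.37 to 0.31). An antisense gene, D430036J16Rik (81631551 to 81645156), overlaps Htr1b in part. It had 1.48 to 2.85 CPM, and as the strand setting of the counting is not known, reads from the stretch they share cannot be told apart. Htr1f (chromosome 16, 64924729 to 65105854), a receptor of the same family, had 3.76, 2.37, 3.46 and 4.47 CPM with TSP1 and 2.34, 2.96 and 2.51 with PBS. In Htr1f 3 of the 4 TSP1 libraries lay above all PBS libraries, and TSP1 replicate 2 lay among them. Its log2 fold change of 0.43 (SE 0.23, 95% interval -0.06 to 0.93, edgeR adjusted p = 0.585) was the largest of the 10 and rested on 41 to 82 counts per library. It was 0.30 without TSP1 replicate 4, the library with high striatal and myelin markers, and 0.59 without TSP1 replicate 2.

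Htr5a, whose receptor also lowers cyclic AMP, lies on chromosome 5 from 27842149 to 27855088. It was the steadiest of the 10, with 21.8, 21.8, 20.5 and 20.6 CPM in the TSP1 libraries and 18.4, 21.1 and 19.5 in the PBS libraries. PBS replicate 2 fell within the TSP1 range. The log2 fold change was 0.11 with a 95% interval of -0.07 to 0.29, so a change of more than 1.22-fold upward or to below 0.952 of the PBS level lies outside it.

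The Gq-coupled receptors are the excitatory Htr2a of pyramidal neurons, through which hallucinogens act, and Htr2c, known for its edited transcripts. Htr2a (chromosome 14, 74640840 to 74709494) had 16.4, 14.6, 16.4 and 15.3 CPM with TSP1 and 13.6, 14.2 and 17.7 with PBS. The PBS libraries enclosed all TSP1 libraries. Its log2 fold change was 0.05 (SE 0.11, 95% interval -0.18 to 0.28, edgeR adjusted p = 0.93).

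Htr2c (chromosome X, 146962513 to 147197277) varied most between libraries of 1 group among the well-counted members. It had 15.4, 23.6, 17.9 and 29.5 CPM in the TSP1 libraries and 24.8, 11.5 and 16.9 in the PBS libraries, a range of 2.56-fold on 195 to 541 counts. High and low libraries occurred in both groups. The CV over the 7 libraries was 31.2%, where counting error alone gives 5.26%, and the within-group SD of 0.47 log2 units exceeded that of 91.5% of all tested genes. The log2 fold change was 0.28 (SE 0.34, 95% interval -0.55 to 1.10, edgeR adjusted p = 0.852), and it moved between 0.05 and 0.61 when PBS replicate 2 or PBS replicate 1 was left out. Choroid plexus is known for very high Htr2c, and its defining transcripts were at or near 0: Ttr had 0 to 1.34 CPM, Folr1 at most 0.436 and Kcne2 at most 0.296. Only 3 of the 9 genes in that list, Kl, Aqp1 and Foxj1, were tested. Summed over the list the level was 6.33 to 19 CPM with TSP1 and 7.15 to 9.35 with PBS. The libraries of highest and lowest Htr2c were TSP1 replicate 4 and PBS replicate 2. The mean of the 3 tested genes was highest in the first (0.83) and low in the second (-0.59). This mean leaves out Ttr, Folr1 and Kcne2. It was lowest in TSP1 replicate 1 (-0.60) and next highest in TSP1 replicate 3 (0.45), where Htr2c had 15.4 and 17.9 CPM. Foxj1 was highest in TSP1 replicate 4 (11.9 CPM) and made up most of the summed level there. Aqp1 was highest in TSP1 replicate 3 (3.07 CPM) and Ttr in PBS replicate 3 (1.34 CPM). The mean of the markers of layers 5 and 6 was also highest in TSP1 replicate 4 (0.34), where 5 of the 8 were highest. The part of these markers, and of the striatal and myelin transcripts of that library, in the Htr2c values was not tested. Without TSP1 replicate 4 the log2 fold change of Htr2c was 0.09. In the next highest libraries, PBS replicate 1 and TSP1 replicate 2, the marker means were -0.16 and -0.25 for the striatal list, 0.38 and -0.56 for the oligodendrocyte list and 0.09 and 0.00 for the choroid plexus list.

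The Gs-coupled receptors had the lowest transcript, Htr4, and the only one whose groups were apart, Htr6. Htr6 encodes a receptor that is dense in striatum and also found in cortex, and it lies on chromosome 4 from 139061108 to 139075570. Its CPM was 7.45, 6.67, 7.41 and 5.61 with TSP1 and 7.64, 10.4 and 7.52 with PBS. The groups were narrowly apart, 7.45 against 7.52, and PBS replicate 2 was high by itself. The log2 fold change was -0.33 (SE 0.16, 95% interval -0.67 to 0.01, unadjusted p = 0.0565, edgeR adjusted p = 0.533), the smallest p of the 10. It was -0.16 without PBS replicate 2 and -0.24 without TSP1 replicate 4. A correction for exon length and GC content gave -0.22. Htr6 has a GC content of 63.1%, the highest of the 10. Striatal markers were highest in TSP1 replicate 4, where Htr6 was lowest, and their part in the Htr6 value was not tested.

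Htr7 (chromosome 19, 35958734 to 36057507) had 6, 6.78, 6.42 and 5.01 CPM with TSP1 and 4.92, 7.1 and 5.87 with PBS. The PBS libraries enclosed the TSP1 libraries, with a log2 fold change of 0.03 (95% interval -0.33 to 0.39). Htr4 (chromosome 18, 62324204 to 62496577) had 2.11, 1.29, 2.25 and 2.34 CPM with TSP1 and 1.53, 1.01 and 2.51 with PBS. The groups overlapped, and the CV over the 7 libraries was 31.2%, where counting error alone, on 17 to 43 counts per library, gives 17.4%. The log2 fold change was 0.25 (95% interval -0.42 to 0.93), and it moved to 0.01 without PBS replicate 2 and to 0.64 without PBS replicate 3.

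Htr3a, the channel subunit of the Vip, Reln and Ndnf interneuron classes, lies on chromosome 9 from 48899213 to 48911099. It had 5.47, 6.56, 5.05 and 4.41 CPM with TSP1 and 7.07, 5.85 and 4.95 with PBS, with overlapping groups and a log2 fold change of -0.15 (SE 0.18, 95% interval -0.53 to 0.23, edgeR adjusted p = 0.828). It was -0.01 without PBS replicate 1. The antisense gene Gm32335 overlaps it and had at most 0.334 CPM. Of 11 genes listed as markers of the interneurons that carry Htr3a, 0 passed in edgeR's quasi-likelihood test over all genes. How far each listed gene is confined to these cells was not tested. At an unadjusted p under 0.05, Reln (log2 fold change 0.48) and Ndnf (0.93) were higher and Vip (-0.52) and Npy (-0.25) lower with TSP1, with edgeR adjusted p = 0.112, 0.401, 0.235 and 0.271. The median of the list was -0.02. Over all genes tested, 4.21% were higher and 5.44% lower with TSP1 at an unadjusted p under 0.05. Of 6 markers of the Pvalb and Sst interneurons, 0 passed over all genes and 5 had fitted values below 0, with a median of -0.18. Of all genes, 51.1% were above 0. Tac1, the 1 marker above 0 (0.33), is also in the striatal list, and Lamp5 is in both the Htr3a interneuron list and that of layers 2 to 4. At an unadjusted p under 0.05, Pvalb (-0.38, edgeR adjusted p = 0.365) and Sst (-0.21, edgeR adjusted p = 0.329) were lower with TSP1. The part of these interneuron markers in the Htr3a value was not tested.

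**Figure D4:**
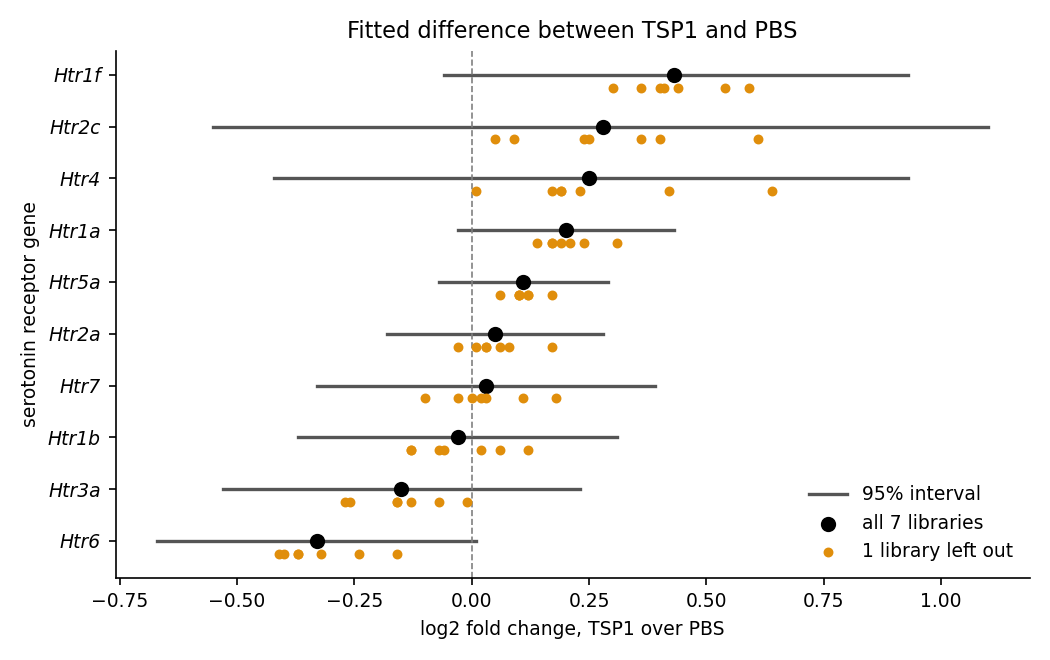
Fitted log2 fold change of TSP1 over PBS (horizontal axis) for each receptor gene (vertical axis); black points use all 7 libraries, grey lines are 95% intervals of the edgeR fit and orange points leave out 1 library each. All 10 intervals include 0, and the widest, that of Htr2c, runs from -0.55 to 1.10.

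The makeup of the family by coupling class overlapped between the groups. Summed over the 10 genes, the level in the TSP1 group was 23.3 ± 0.333 CPM per kilobase (SD, n = 4). In the PBS group it was 22.7 ± 0.397 (SD, n = 3). Gi/o-coupled members made up 45.2% ± 2.57 of this sum with TSP1 and 41.9% ± 2.55 with PBS. The Gq-coupled pair made up 21.9% ± 2.19 and 20.3% ± 3.32, the Gs-coupled members 21.8% ± 2.46 and 25.2% ± 3.78, and Htr3a 11.1% ± 1.97 and 12.6% ± 2.48. The libraries of both groups overlapped in every class. TSP1 replicate 4 had the largest Gi/o share (48.1%) and the smallest Gs share (18.3%), and PBS replicate 2 the largest Gs share (29.5%). These shares depend on the exon length given to each gene, as does the place of Htr2c above. No test was made on them, because the classes are sums over chosen members.

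**Figure D5:**
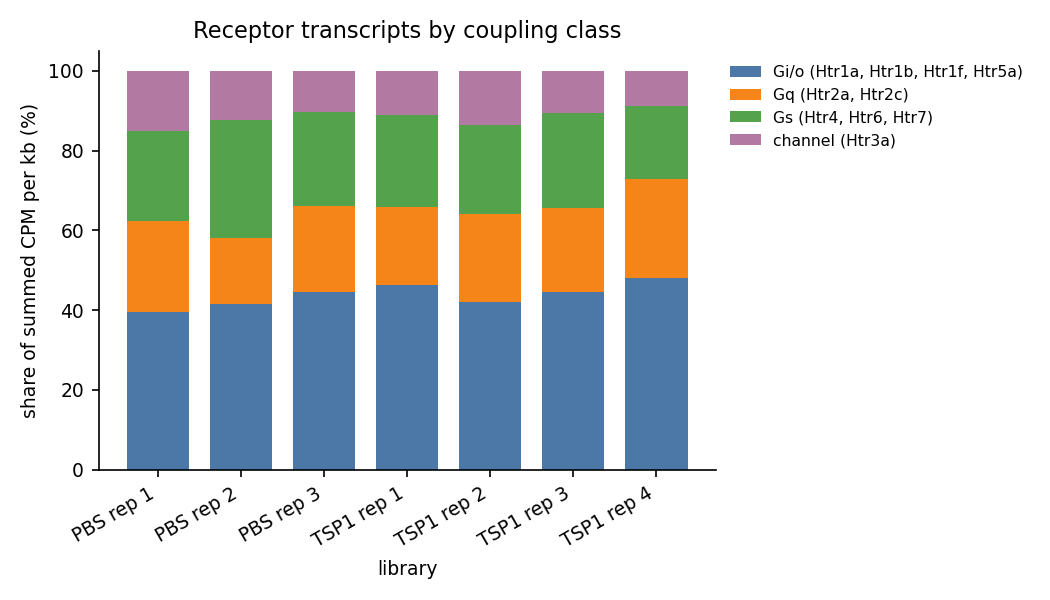
Share of the summed CPM per kilobase of the 10 receptor genes (vertical axis, %) by coupling class in each library (horizontal axis); each bar is 1 library and adds up to the whole family. The Gi/o share runs from 39.5% to 48.1% and the Htr3a share from 8.91% to 15.2%.

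Genes that make, move and break down serotonin gave no call either. Of the 11 in the list 7 were tested, and 0 passed in edgeR's quasi-likelihood test over all genes. The median log2 fold change was 0.03. At an unadjusted p under 0.05, 1 was higher and 2 lower with TSP1, where 4.21% of all genes tested were higher and 5.44% lower. Maob, a monoamine oxidase that is rich in astrocytes, had 24.5, 27.3, 27.9 and 24.3 CPM with TSP1 and 33.7, 28.7 and 32.2 with PBS. Each TSP1 library lay below each PBS library in Maob, with a log2 fold change of -0.28 (SE 0.08, edgeR adjusted p = 0.313). Of the 8 astrocyte markers 7 also had fitted values below 0, with a median of -0.16, where 51.1% of all genes were above 0. The summed levels of these markers were 5211 to 6414 CPM with TSP1 and 5985 to 6992 with PBS. Their part in the Maob value was not tested. Ddc, the decarboxylase that completes serotonin and dopamine synthesis, had a log2 fold change of -0.50 (SE 0.21, edgeR adjusted p = 0.471). Slc22a3, a low-affinity uptake transporter, had 0.76 (SE 0.32, edgeR adjusted p = 0.477).

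The signalling partners of the receptors gave no call. In the Gi/o list 0 of 9 genes passed over all genes, with a median log2 fold change of 0.07. At an unadjusted p under 0.05, 1 was higher and 1 lower, against 9.65% of all genes tested. Kcnj3, a subunit of the potassium channel that Gi/o receptors open, had 89.6, 83.1, 88.6 and 84 CPM with TSP1 and 72.9, 77.9 and 73.2 with PBS. The groups were apart in Kcnj3, with a log2 fold change of 0.21 (SE 0.06, edgeR adjusted p = 0.302). Gnai2, an inhibitory G protein alpha subunit, went the other way with -0.17 (SE 0.06, edgeR adjusted p = 0.425).

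In the Gq and Gs lists 0 of 10 genes each passed over all genes, with medians of 0.03 and 0.02. At an unadjusted p under 0.05 each had 1 gene, the phospholipase Plcb1 (log2 fold change 0.18, edgeR adjusted p = 0.511) and the adenylyl cyclase Adcy8 (0.17, edgeR adjusted p = 0.515), both higher with TSP1. The share of all genes tested at such a p was 9.65%. Of 14 partners that bind, desensitize or edit the receptors or regulate their genes, 0 passed over all genes and the median was -0.03. The receptor kinase Grk2 was the only one at an unadjusted p under 0.05 (log2 fold change -0.20, edgeR adjusted p = 0.479). S100a10, which brings Htr1b and Htr4 receptors to the cell surface, and Adarb1, an editing enzyme of Htr2c transcripts, had log2 fold changes of 0.07 and 0.00.

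Receptors of the other amine transmitters gave no call. Of 21 listed genes 17 were tested, 0 passed in edgeR's quasi-likelihood test, and the median log2 fold change was 0.04. At an unadjusted p under 0.05 the muscarinic Chrm4 was higher (0.30, edgeR adjusted p = 0.459) and the adrenergic Adra2c lower (-0.31, edgeR adjusted p = 0.473). The share of all genes tested at such a p was 9.65%. Of the 3 further serotonin receptor genes, Htr1d, Htr2b and Htr5b, 0 passed over all genes, and 0 had an unadjusted p under 0.05. The smallest p among them was that of Htr2b (log2 fold change -0.65, SE 0.50, edgeR adjusted p = 0.727), at 0.161 to 1.01 CPM. Drd2, a dopamine receptor of striatal neurons, had 16.5 CPM in TSP1 replicate 4 and 1.16 to 2.08 in the other 6 libraries.

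For the 3 receptor transcripts of highest level per length, the genes whose log2 CPM ran most alike over the 7 libraries were listed as a description. They were Zfp704, Zc3hav1l and Taf6 for Htr5a (Pearson r = 0.985, 0.972 and 0.965), Cnnm4, Tspan18 and Slc27a2 for Htr1a (0.980, 0.977 and 0.977) and Elf4, Oas2 and Pip4p1 for Htr6 (0.960, 0.958 and 0.957). Between 40 and 55 of 13956 protein-coding genes reached an r of at least 0.9 with each of the 3. All genes share the same 7 libraries and their depth, and with 7 points many genes reach such values.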

How the data were processed

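The authors deposited raw read counts per gene as 1 table, as judged from its whole-number values. Its smallest row total was 5 counts, so genes with fewer counts were not in it. Per the labels' protocols, 1.3 µg of total RNA entered a SMARTer mRNA library. The builds GRCm38 and mm10 are named in the submitters' processing notes. The sources used here do not name the aligner, counting tool or strand setting. Column names matched the number that opens each description (0 columns belonged to other samples). Those numbers run from 1 to 4 (TSP1) and are 8, 11 and 12 (PBS), so library order and treatment cannot be told apart. Of 25467 identifiers, 25375 matched GENCODE M21.

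The test was edgeR 4.0.16 (R 4.3.3): filterByExpr, TMM and a robust quasi-likelihood fit of group over 7 libraries, two-sided, with Benjamini-Hochberg adjustment over 17211 genes and a threshold of 0.05. SE is the absolute log2 fold change divided by root F, and 95% intervals use the fit's degrees of freedom. The fit was tested on simulated data. Log2 CPM used a prior count of 2. P-values measure the spread between these mice. Alternatives were RLE factors, DESeq2 1.42.0, the exact test, limma-voom (limma 3.58.1), 2 filters, the replicate block, a length and GC correction and leaving out each library.

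Replicates differed by more than sampling noise (chi-square per degree of freedom at least 4.02). The members and lists were chosen with earlier results of these data known. The genes named were the 10 members, each pathway list's gene of smallest p and those at an unadjusted p under 0.05, and the 3 most alike genes for 3 members. Marker genes, S100a10, Adarb1, Hrh3, Chrm1 and Drd2 were added after their values were seen.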

Additional observations from a re-analysis of the deposited data

Results flagged for a closer look

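The mean of the striatal marker list in TSP1 replicate 4 lay far from the other 3 TSP1 libraries: its gap to the nearest of them was 0.901 of the group's range, above Dixon's 95% critical value for 4 samples. It was the only one of 21 such groups past the limit, 10 of which were receptor genes, and chance alone passes about 1 group in 20. No receptor gene was past it. In that library Htr1a, Htr1f and Htr2c were highest of the 7 libraries and Htr3a and Htr6 lowest, and the part of its striatal transcripts in these values was not tested. Without it the log2 fold changes were 0.17, 0.30, 0.09, -0.07 and -0.24 for Htr1a, Htr1f, Htr2c, Htr3a and Htr6.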

How the results depend on the processing

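Across all alternatives 0 receptor genes were called. Over all genes DESeq2 called 87, edgeR's exact test 104 and the fit with no low-count filter 19, against 0 in the main test, and leaving out 1 library gave 0 to 9. At an unadjusted p under 0.05, Htr6 passed with no filter and when PBS replicate 3, PBS replicate 1 or TSP1 replicate 1 was left out, Htr1f without TSP1 replicate 2, and Htr1a without PBS replicate 3. Signs turned for Htr1b (-0.13 to 0.12 when 1 library was left out), Htr7 (-0.10 to 0.18) and Htr2a (-0.03 to 0.17), and for no other receptor gene. The replicate block called 0 genes and 0 receptor genes, and the deviations of same-numbered libraries had correlations of -0.261, -0.0331 and 0.0103, so the numbers were not taken as pairs. In the order of levels, 2 of 10 genes kept their place with the longest transcript as length, 4 with coding length, 6 in the PBS libraries alone and 4 to 10 without 1 library, with Htr5a first and Htr4 last except that Htr2c was first with the longest transcript. The filter of at least 5 CPM in 3 libraries left out Htr1f and Htr4. Counting error was largest for Htr4 (17.4%) and Htr1f (13.5%).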
